A study of Mus musculus with 5 samples.

Results

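Insulin and the insulin-like growth factors act on cells through a pair of related receptor tyrosine kinases, and 9 genes of that pathway are described here. They were chosen by name: the receptors Insr and Igf1r, the receptor substrates Irs1 and Irs2, the kinases Akt1 and Akt2, the transcription factor Foxo1, and the growth regulators Mtor and Tsc2. All 9 were found among the 19938 genes measured, each through the probe set with the highest mean signal where a gene had several. An activated receptor phosphorylates the IRS proteins, which recruit PI3 kinase and so activate AKT. AKT keeps FOXO1 out of the nucleus and inhibits TSC2, the brake on the mTOR kinase complex that promotes protein synthesis and cell growth. In β-cells the pathway is known for its part in the growth, survival and secretory function of the cell, with IRS2 as its best known substrate there.

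The arrays measured sorted pancreatic islet cells of untreated C57BL/6 mice, 8 to 12 weeks old, all heterozygous for a modified Flattop allele (genotype FVR/+). Cells positive for Flattop were measured on 3 arrays and cells negative for Flattop on 2, each array holding RNA pooled from 4 to 6 mice whose sex had not been determined. Flattop, the product of Cfap126, is an effector of planar cell polarity, and the title of the series contrasts proliferative with mature β-cells. No group without the allele is part of the series, so both fractions carry it.

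All values are log2 signals per probe set, so a difference of 1 is a 2-fold difference, and no level is set against that of another gene. Cfap126 averaged 6.13 ± 0.10 in Flattop-positive pools and 5.48 ± 0.05 in Flattop-negative pools (SD, n = 3 and 2). The islet hormone genes Ins2 and Gcg were above 12 on all 5 arrays. Sst and Ppy, hormones of δ- and PP-cells, stood at 12.32 to 13.19 and 12.44 to 13.63 on 4 arrays but at 8.08 and 8.98 on Flattop-negative replicate 1. Flattop-positive replicate 3 and Flattop-negative replicate 2 stood apart in another way, with Xist, a transcript of the inactive X chromosome, at 7.81 and 8.62 against 3.58 to 4.36 on the other 3. The same arrays had the highest median signal of 9 immediate early and heat shock genes, at 9.97 on each, against 6.48 to 7.70. Every one of the 9 signalling genes lay above the 95th percentile of 1027 olfactory receptor genes, which served as a floor, on every array. Since these are pools of cells, fewer cells of a type and less RNA per cell cannot be told apart.

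Between the fractions, 7 of the 9 genes lay higher and 2 lower in the Flattop-positive pools, by modest amounts. Akt1 differed most, 2.21-fold, followed by Igf1r at 1.75-fold, Mtor at 1.73-fold and Tsc2 at 1.68-fold. The exceptions were Insr and Irs2, 1.18-fold and 1.24-fold higher in the Flattop-negative pools. In limma's model over all genes, 0 of the 9 passed an adjusted p of 0.05, and the same held for 0% of all genes. At an unadjusted p under 0.05, 2 were higher, Akt1 and Tsc2, and 0 lower, while 8.48% of all genes were higher and 5.37% lower by that rule. The fractions did not overlap, with the Flattop-positive arrays on top, for 4 of the 9 (Irs1, Akt1, Mtor and Tsc2), against 13.7% of all genes. None was lower without overlap, against 21% of all genes but 3.17% of the 5622 genes whose mean signal lay within the range of the 9. After quantile normalization or cyclic loess, 7 of the 9 still lay higher, but 0 had an unadjusted p under 0.05 and 0 were without overlap. Of all genes, 8.86% and 8.18% then had such a p, and 25.8% and 25.5% were without overlap, in either direction. The count of 2 became 0 without Flattop-positive replicate 1, Flattop-positive replicate 2 or Flattop-negative replicate 1, where 6.01%, 7.58% and 26.8% of all genes were called in either direction. It became 4 without Flattop-positive replicate 3 or Flattop-negative replicate 2, where 10.9% and 27.0% of all genes were called. The count without overlap in either direction was 7 and 8 with these last arrays left out, against 48.0% and 69.3% of all genes. The median log2 difference was 0.73 over the 9 genes and -0.10 over all genes, and that of the 9 was 0.47 without Flattop-negative replicate 1. Genes at this level of signal tended the same way, however. Among the 5622 genes in their signal range, the median difference was 0.34, 19.9% were higher at the unadjusted threshold and 29.4% were higher without overlap.

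**Figure D1:**
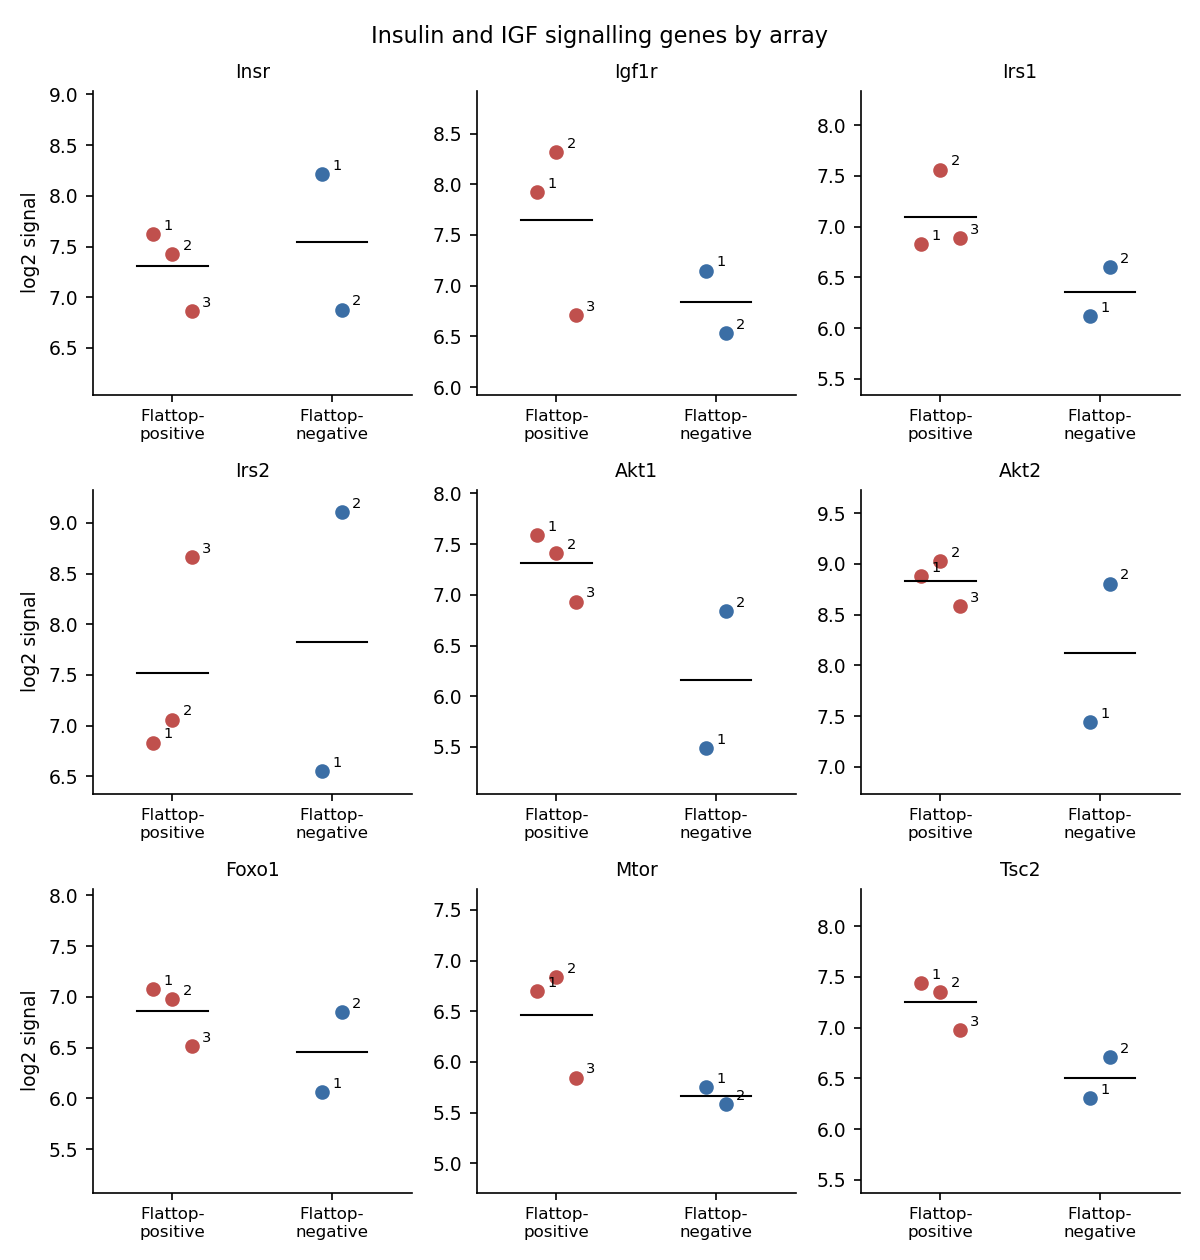
Log2 signal of each of the 9 genes on the 3 Flattop-positive arrays (red) and the 2 Flattop-negative arrays (blue); numbers are replicates, black lines are group means, and each panel spans 3 log2 units. Akt1, Akt2 and Foxo1 are lowest on Flattop-negative replicate 1, and Irs2 is high on 1 array of each fraction.

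The receptors did not separate the fractions. Igf1r, the receptor for insulin-like growth factors (probe set 10554094), had log2 signals of 7.92, 8.32 and 6.71 in Flattop-positive pools, against 7.15 and 6.53 in Flattop-negative pools. Flattop-positive replicates 1 and 2 were high, and replicate 3 lay between the Flattop-negative arrays. The difference was 0.81 ± 0.52 log2 units (SE; limma adjusted p = 0.503), and it was 1.28 without Flattop-positive replicate 3 and 0.48 without replicate 2. Insr, the insulin receptor (probe set 10576692), had 7.63, 7.43 and 6.87 in Flattop-positive pools, against 8.21 and 6.88 in Flattop-negative pools. Here Flattop-negative replicate 1 was the highest of all arrays, and the other Flattop-negative array lay at the level of Flattop-positive replicate 3. The log2 difference of -0.24 ± 0.46 (SE; limma adjusted p = 0.817; 95% confidence interval -1.39 to 0.90) turned to 0.43 without Flattop-negative replicate 1.

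The direction of Insr also hung on the probe set. Its second probe set (10576696), with a lower mean signal, had 6.67, 6.67 and 5.68 in Flattop-positive pools, against 5.32 and 5.93 in Flattop-negative pools, a log2 difference of 0.71. Flattop-negative replicate 1 was thus the highest array on one Insr probe set and the lowest on the other. Both are annotated to the same RefSeq transcript, and their neighbours in probe set number lie on chromosome 8, where Insr is (GRCm38.p6, chr8:3150922-3279649). With the mean of the probe sets, the Insr difference was 0.24.

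Insrr, the gene of an orphan receptor of the same family known for sensing alkaline pH, separated the fractions where Insr and Igf1r did not. Its log2 signals were 8.51, 8.81 and 8.81 in Flattop-positive pools, against 6.76 and 7.31 in Flattop-negative pools. All Flattop-positive arrays lay over 1 log2 unit above both Flattop-negative arrays. The difference of 1.68 ± 0.25 log2 units (SE), or 3.20-fold, had an adjusted p of 0.198 in limma, equal to the smallest over all genes. Without Flattop-negative replicate 2 it was 1.96 (adjusted p = 0.0437), where 2.18% of all genes passed. Igf2r, which takes up IGF2 for degradation and does not signal through IRS proteins, had a difference of 0.18 ± 0.40 (SE; limma adjusted p = 0.840).

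The substrates Irs1 and Irs2 have upstream sequences that share a short stretch of letters, which is shown because both genes are known to respond to insulin and fasting in other tissues, and because they differed here in how they varied. The 250 bases before the annotated start are given 5′ to 3′ on the gene's strand, from RefSeq on GRCm38.p6, at chr1:82291440-82291689 (minus strand) for Irs1 and chr8:11008930-11009179 (minus strand) for Irs2. Capitals mark the E-box CACGTG and the insulin response core CAAAACA, found here on the other strand as TGTTTTG.
Irs1: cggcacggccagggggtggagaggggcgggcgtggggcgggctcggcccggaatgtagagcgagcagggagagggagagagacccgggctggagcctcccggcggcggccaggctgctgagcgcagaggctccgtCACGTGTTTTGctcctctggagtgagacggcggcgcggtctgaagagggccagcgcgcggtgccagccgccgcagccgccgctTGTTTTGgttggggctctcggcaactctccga
Irs2: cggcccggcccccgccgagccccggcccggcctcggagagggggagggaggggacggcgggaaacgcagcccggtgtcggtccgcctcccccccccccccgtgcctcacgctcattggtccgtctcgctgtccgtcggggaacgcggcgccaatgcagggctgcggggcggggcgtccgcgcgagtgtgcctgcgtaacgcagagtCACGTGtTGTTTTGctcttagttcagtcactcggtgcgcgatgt
In Irs1 the E-box begins 115 bases and a core 111 bases before the start, so that they share the letters TG, and a second core begins at 32. In Irs2 the E-box begins 44 bases and the core 37 bases before the start, with 1 base between them. Searching both strands of 32817 windows (250 bases before to 50 after a start), 7.15% held the E-box, 6.29% the core and 0.408% both. Windows were matched for 8 of the 9 genes. The FOXO element GTAAACA (3.65% of windows) and the cAMP response element TGACGTCA (1.79%) were searched as well and were in neither the Irs1 nor the Irs2 window. Such a match describes letters and no binding was measured.

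Irs1, a substrate of both receptors (probe set 10356084), had log2 signals of 6.83, 7.56 and 6.89 in Flattop-positive pools, against 6.12 and 6.60 in Flattop-negative pools. The groups did not overlap, though Flattop-positive replicate 1 was only slightly above Flattop-negative replicate 2. The difference was 0.73 ± 0.31 log2 units (SE; limma adjusted p = 0.382). A second probe set annotated to Irs1 (10347792), through a different sequence record from the first, had 5.55, 5.20 and 5.78 in Flattop-positive pools, against 6.62 and 4.86 in Flattop-negative pools. There the Flattop-negative arrays lay on either side of all Flattop-positive arrays, with a log2 difference of -0.24. With the mean of the probe sets, the Irs1 difference was 0.25.

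Irs2, the substrate best known in β-cells (probe set 10576971), varied most of the 9 and not by fraction. It had log2 signals of 6.83, 7.06 and 8.66 in Flattop-positive pools, against 6.56 and 9.10 in Flattop-negative pools. One array of each fraction was high, and these were Flattop-positive replicate 3 and Flattop-negative replicate 2, the arrays with high Xist and high immediate early genes. Between the fractions the difference was -0.31 ± 0.90 log2 units (SE; limma adjusted p = 0.885), with a 95% confidence interval of -2.57 to 1.95. Leaving out Flattop-negative replicate 1 gave -1.58, and leaving out replicate 2 gave 0.96.

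Immediate early genes are those that cells induce within minutes of stimulation or stress. Of the 9 immediate early and heat shock genes, 8 were likewise highest on these arrays, the exception being Hspb1. Atf3, a stress-induced transcription factor, stood at 7.51, 5.27 and 11.51 in Flattop-positive pools, against 7.61 and 11.74 in Flattop-negative pools. Hspa1a, an inducible heat shock protein gene, stood at 6.52, 5.19 and 9.97 in Flattop-positive pools, against 6.85 and 10.13 in Flattop-negative pools. The mean of the high Xist pair of arrays exceeded that of the other 3 by 2.07 log2 units for Irs2. For Insr, Igf1r and Mtor it was lower, with differences of -0.88, -1.18 and -0.72, and for the remaining 5 genes it lay between -0.19 and 0.25. Xist and the stress genes separate the same arrays, so they cannot be told apart here, and their part in the Irs2 levels was not tested.

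**Figure D2:**
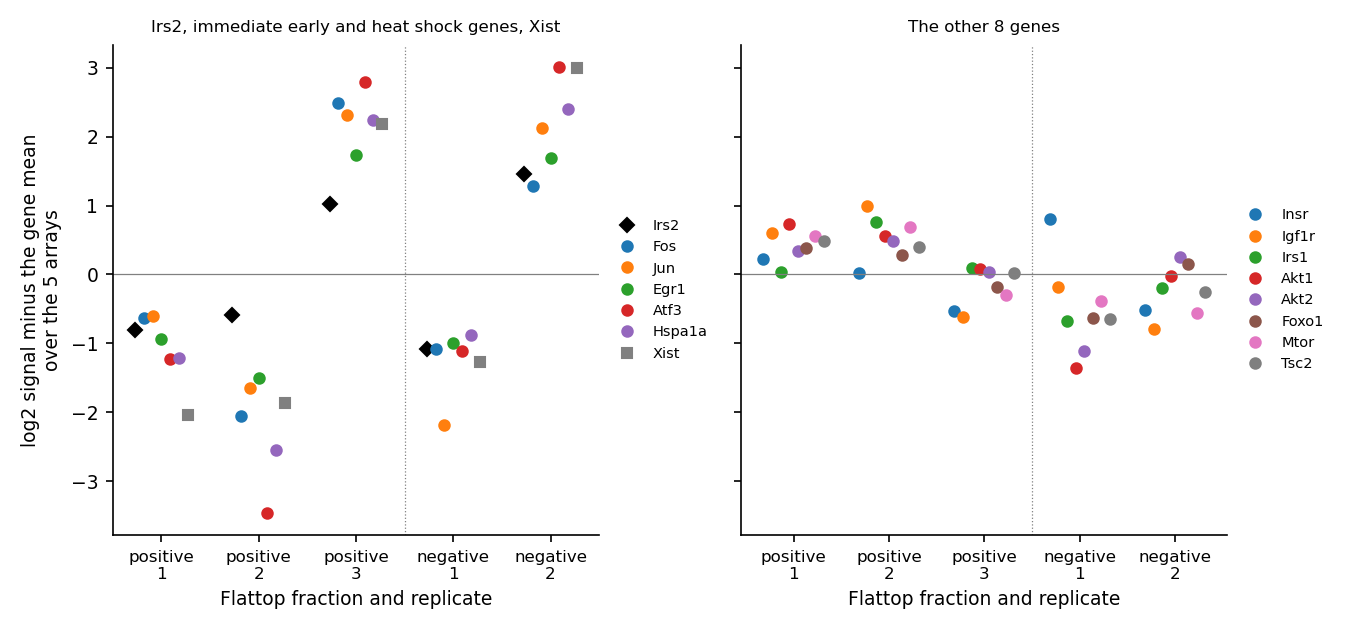
Log2 signal of each gene minus its own mean over the 5 arrays (vertical axis), by fraction and replicate. Left, Irs2 with 5 of the 9 immediate early and heat shock genes and Xist, all high on Flattop-positive replicate 3 and Flattop-negative replicate 2; right, the other 8 signalling genes, with Irs1, Akt1, Akt2, Foxo1 and Tsc2 lowest on Flattop-negative replicate 1.

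Akt1 and Akt2 are the widely expressed AKT kinases, of which AKT2 is known for its role in glucose uptake. Akt1 has 2 annotated starts in the RefSeq table, and the window of the upstream one (chr12:112674885-112675134, minus strand, GRCm38.p6) was the single window among those of the 8 genes that held the FOXO element, here on the other strand as TGTTTAC, in capitals. It is shown because FOXO factors are themselves regulated by AKT.
Akt1: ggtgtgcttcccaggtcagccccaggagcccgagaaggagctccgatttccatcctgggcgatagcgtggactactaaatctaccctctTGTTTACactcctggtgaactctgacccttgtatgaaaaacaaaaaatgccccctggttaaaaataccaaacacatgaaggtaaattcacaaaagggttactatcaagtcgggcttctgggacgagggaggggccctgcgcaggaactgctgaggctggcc
The element begins 161 bases before that start. No binding was measured.

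Akt1 (probe set 10402766) had log2 signals of 7.59, 7.41 and 6.93 in Flattop-positive pools, against 5.49 and 6.84 in Flattop-negative pools. The groups did not overlap, but Flattop-negative replicate 1 lay far below the rest and replicate 2 close under Flattop-positive replicate 3. The difference was 1.15 ± 0.45 log2 units (SE; unadjusted p = 0.0460, limma adjusted p = 0.353). Leaving out Flattop-negative replicate 1 gave 0.47, and leaving out replicate 2 gave 1.82 (adjusted p = 0.0684).

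Akt2 (probe set 10374364) had 8.88, 9.03 and 8.58 in Flattop-positive pools, against 7.44 and 8.81 in Flattop-negative pools. Flattop-negative replicate 2 lay within the Flattop-positive range, so only replicate 1 was low. The difference of 0.71 ± 0.43 log2 units (SE; limma adjusted p = 0.487) shrank to 0.03 when Flattop-negative replicate 1 was left out, and leaving out replicate 2 gave 1.39. This probe set is annotated to Akt2, a gene on chromosome 7, yet of the 20 probe sets nearest to it in number 19 belong to genes of chromosome 11 and 0 to genes of chromosome 7. The second Akt2 probe set (10551393), whose 20 neighbours all belong to chromosome 7, had 8.24, 8.36 and 7.68 in Flattop-positive pools, against 6.67 and 7.84 in Flattop-negative pools. Its pattern was the same, with a log2 difference of 0.84 and only Flattop-negative replicate 1 below the Flattop-positive range. Whether the first probe set reads the Akt2 gene itself was not tested, and the Akt2 values above rest on it. After cyclic loess its difference was 0.22.

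**Figure D3:**
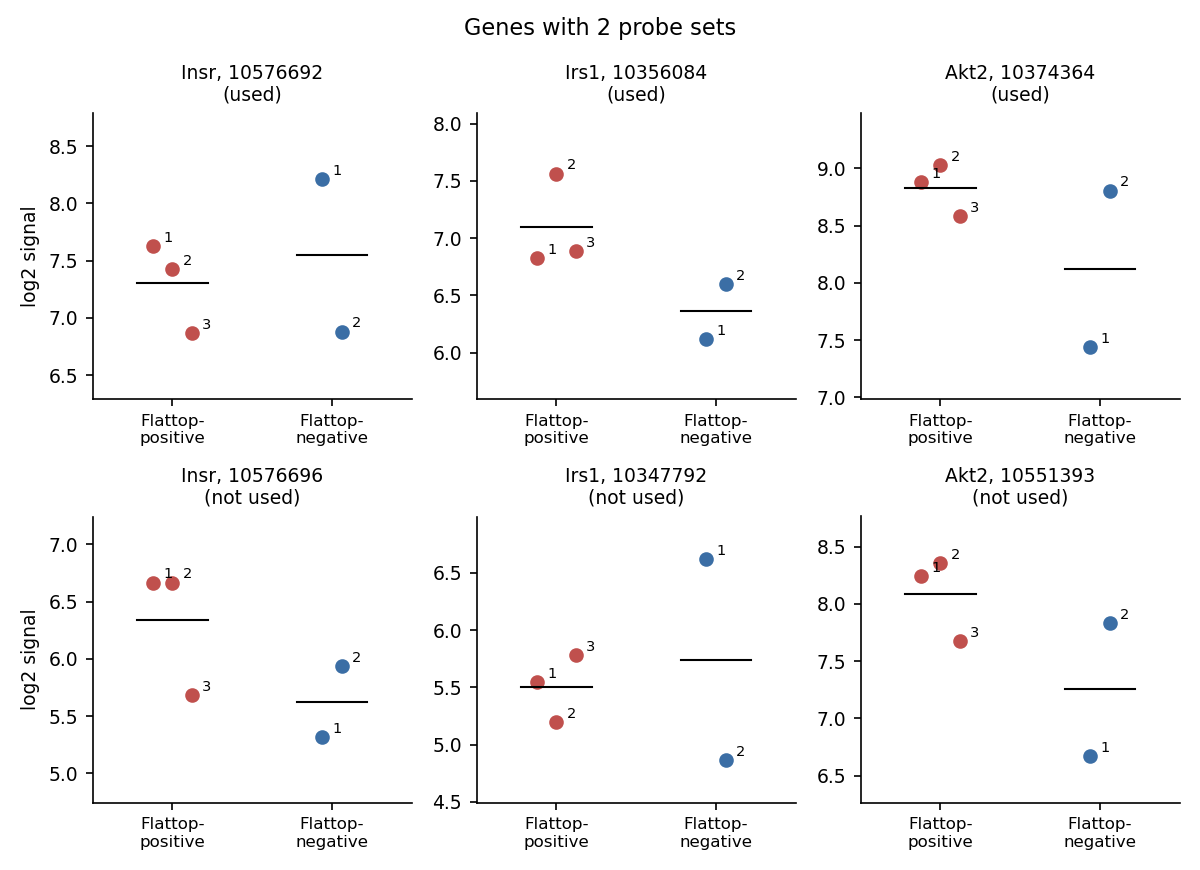
Log2 signal of both probe sets of Insr, Irs1 and Akt2 on the Flattop-positive (red) and Flattop-negative (blue) arrays; numbers are replicates, black lines are group means, and each panel spans 2.5 log2 units. The Insr and Irs1 probe sets place Flattop-negative replicate 1 at opposite ends, while the Akt2 probe sets share 1 pattern.

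Foxo1, the transcription factor that AKT restrains (probe set 10491962), had 7.08, 6.98 and 6.51 in Flattop-positive pools, against 6.06 and 6.85 in Flattop-negative pools. As for Akt2, only Flattop-negative replicate 1 was below the Flattop-positive range. The log2 difference was 0.40 ± 0.32 (SE; limma adjusted p = 0.578; 95% confidence interval -0.41 to 1.21) and came to 0.01 with Flattop-negative replicate 1 left out and 0.80 with replicate 2 left out. After quantile normalization and cyclic loess it was 0.04 and 0.06. Foxo3, a relative, had 7.42, 7.21 and 8.21 in Flattop-positive pools, against 6.91 and 8.59 in Flattop-negative pools, and was high on the same arrays as Irs2. Of 12 genes known as FOXO targets in various tissues, 0 had an unadjusted p under 0.05 in limma, where 8.48% of all genes were higher and 5.37% lower. The median difference of the 12 was -0.24, or -0.63 and -0.06 without Flattop-negative replicate 1 or 2. Sesn3, which restrains mTORC1, was higher without overlap (0.57 ± 0.27, SE; limma adjusted p = 0.406; 0.24 without Flattop-negative replicate 1 and 0.09 after cyclic loess), and Trim63, a muscle ubiquitin ligase, was lower without overlap but under the floor on all arrays.

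Mtor and Tsc2 lay higher in the Flattop-positive pools with any single array left out, as did each of the 7 genes that were higher with all arrays. Tsc2 no longer had an unadjusted p under 0.05 in limma without Flattop-positive replicate 1, Flattop-positive replicate 2 or Flattop-negative replicate 1. Mtor, the kinase at the core of both mTOR complexes (probe set 10510305), had 6.70, 6.84 and 5.85 in Flattop-positive pools, against 5.75 and 5.58 in Flattop-negative pools. Flattop-positive replicates 1 and 2 were about 1 log2 unit above the Flattop-negative arrays, and replicate 3 was just above them. The difference was 0.79 ± 0.35 log2 units (SE; limma adjusted p = 0.387), and leaving out Flattop-negative replicate 1 or 2 gave 0.88 or 0.71. Tsc2, the inhibitor of mTORC1 (probe set 10448631), had 7.44, 7.36 and 6.98 in Flattop-positive pools, against 6.30 and 6.71 in Flattop-negative pools, without overlap. Its difference of 0.75 ± 0.25 log2 units (SE; unadjusted p = 0.0249, limma adjusted p = 0.307) had the smallest p of the 9 genes, and ran from 0.55 to 0.95 with single arrays left out. After quantile normalization and cyclic loess the difference was 0.40 and 0.38 for Tsc2 and 0.59 and 0.56 for Mtor, and the groups overlapped.

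**Figure D4:**
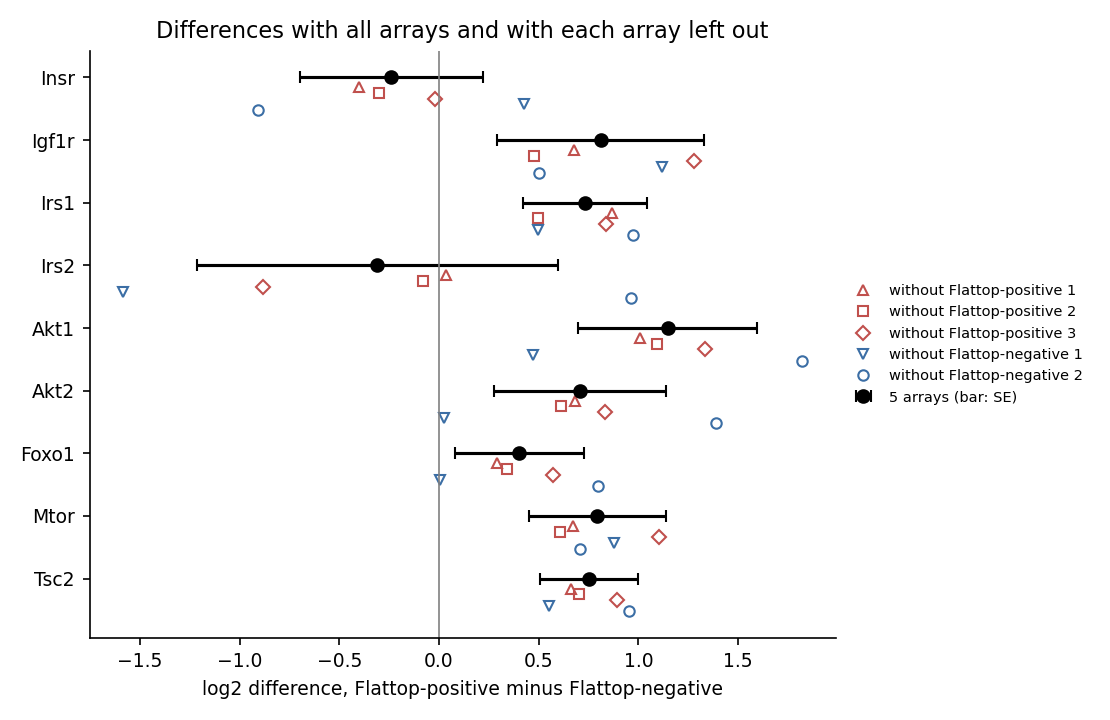
Log2 difference, Flattop-positive minus Flattop-negative, for each of the 9 genes with all 5 arrays (black, bar is the SE) and with each array left out (red for Flattop-positive, blue for Flattop-negative arrays). The Akt1, Akt2 and Foxo1 differences shrink without Flattop-negative replicate 1, Insr and Irs2 change sign, and Mtor and Tsc2 stay between 0.55 and 1.10.

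For all of the 9 genes but Irs2, the difference between the fractions was wider among the arrays with low Xist than within the pair with high Xist. Flattop-positive replicates 1 and 2 exceeded Flattop-negative replicate 1 by 2.01 log2 units for Akt1, 1.51 for Akt2 and 0.97 to 1.09 for Igf1r, Irs1, Foxo1, Mtor and Tsc2. Among the arrays with high Xist, Flattop-positive replicate 3 minus Flattop-negative replicate 2 gave 0.10 for Akt1, -0.22 for Akt2, -0.34 for Foxo1 and 0.18 to 0.29 for Igf1r, Irs1, Mtor and Tsc2. All 9 differences within that pair lay between -0.44 and 0.29. With the high Xist arrays as a block in limma, Tsc2 and Mtor had unadjusted p-values of 0.0377 and 0.0418 (0.74 and 0.69 log2 units; adjusted p = 0.298 and 0.301), and Akt1 had 0.0510. A single pair of arrays has no replicate check. The low Xist side also rests on a single Flattop-negative array, replicate 1. That array was the lowest for 6 of the 9 genes, and low in Sst and Ppy.

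Other genes of the pathway were read from 12 lists by role, with 112 of 121 genes measured through a probe set of a single gene. The other listed genes were not analysed here. Of the 112, the 9 included, 15 were higher and 5 lower at an unadjusted p under 0.05 in limma, and 0 passed the adjusted threshold. The shares of all genes by these rules are the 8.48% and 5.37% above. Their median difference was 0.17, between that of all genes (-0.10) and that of genes at the signal of the 9 (0.34). The balance of the calls turned with the scaling: 4 higher and 7 lower after quantile normalization and 4 higher and 8 lower after cyclic loess. These are 9.82% and 10.7% of the 112, against 8.86% and 8.18% of all genes called in either direction. In place of 20 calls there were 6 without Flattop-positive replicate 1, 8 without Flattop-positive replicate 2 and 41 without Flattop-negative replicate 2. Those are 5.36%, 7.14% and 36.6% of the 112, against 6.01%, 7.58% and 27.0% of all genes. Of 18 named pathway genes outside the 9 that lay higher, the difference of 13 shrank by over 1.5 times after quantile normalization or cyclic loess.

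Genes that feed amino acid and energy signals into mTORC1 held the most calls of the 12 lists by number. Of 17 genes, 6 (35.3%) were higher and 0 lower, with a median difference of 0.75. By that rule 8.48% of all genes were higher and 5.37% lower. In the signal range of the 9 genes 19.9% were higher, with a median difference of 0.34. The share was larger in the TSC complex and RHEB list (2 of 4) and the RAS and ERK list (2 of 5). Lamtor4, a subunit of the Ragulator complex that tethers mTORC1 to lysosomes, had 9.03, 8.81 and 9.21 in Flattop-positive pools, against 7.48 and 7.76 in Flattop-negative pools. Its groups lay over 1 log2 unit apart, with a difference of 1.40 ± 0.22 (SE; limma adjusted p = 0.198). Lamtor2, of the same complex, had 8.28, 7.60 and 8.86 in Flattop-positive pools, against 4.05 and 6.78 in Flattop-negative pools, with Flattop-negative replicate 1 under the floor. Its difference was 2.83 ± 0.84 log2 units (SE; limma adjusted p = 0.279), and 1.47 without that array. Nprl2 and Nprl3, subunits of the GATOR1 complex that silences mTORC1 when amino acids are scarce, were higher by 1.18 ± 0.35 and 0.75 ± 0.23 log2 units (SE; limma adjusted p = 0.279 and 0.286), Nprl2 by 0.67 without Flattop-negative replicate 1. Lamtor5 and Flcn, which encodes folliculin, completed the 6; these and Nprl3 are named here because they were among the calls, a choice made on their values. The list thus held activators and inhibitors of mTORC1 alike.

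Beside Tsc2, its partner Tsc1 had 7.44, 7.28 and 7.27 in Flattop-positive pools, against 6.50 and 6.80 in Flattop-negative pools. The groups did not overlap, and the difference was 0.68 ± 0.20 log2 units (SE; limma adjusted p = 0.279), or 0.34 and 0.29 after quantile normalization and cyclic loess. Rheb, the GTPase that the TSC complex switches off, had a difference of -0.32 ± 0.31 (SE; limma adjusted p = 0.640), and -0.05 without Flattop-positive replicate 2. Of the mTOR complexes, Rptor, the defining subunit of mTORC1, had 6.55, 6.74 and 6.28 in Flattop-positive pools, against 6.22 and 5.82 in Flattop-negative pools, a difference of 0.50 ± 0.24 (SE; limma adjusted p = 0.416) without overlap, and 0.30 with Flattop-negative replicate 2 left out. Rictor, its counterpart in mTORC2, had -0.33 ± 0.27 (SE; limma adjusted p = 0.576), and -0.11 without Flattop-negative replicate 1. Among mTORC1 outputs, Eif4ebp2, a repressor of translation that mTORC1 switches off, was the 1 called of 8, at 1.07 ± 0.41 (SE; limma adjusted p = 0.347), and Eif4ebp1 had 0.78 ± 0.44 (adjusted p = 0.463; 0.49 without Flattop-positive replicate 1).

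Between receptor and AKT, the adaptors differed in direction. Grb10, an adaptor that dampens insulin and IGF receptor signalling, had 6.30, 6.50 and 5.92 in Flattop-positive pools, against 6.86 and 7.82 in Flattop-negative pools. It was lower without overlap, by -1.10 ± 0.35 log2 units (SE; limma adjusted p = 0.301), and by -0.62 without Flattop-negative replicate 2. Shc1, the adaptor to the RAS branch, was higher by 0.61 ± 0.20 (SE; limma adjusted p = 0.300; 0.28 and 0.19 after quantile normalization and cyclic loess), as were Araf and Map2k2, kinases of that branch, by 0.88 ± 0.29 and 1.10 ± 0.38 (adjusted p = 0.302 and 0.317). Without Flattop-negative replicate 2, 3 pathway genes passed among 434 of all genes: Insrr, Map2k2 (1.70, adjusted p = 0.0454) and Stk11, the kinase LKB1 (adjusted p = 0.0412), which is named because it passed. Leaving out Flattop-negative replicate 1 gave 0.50 for Map2k2 and 0.55 for Araf. Ptpn1, the phosphatase PTP1B that acts on the insulin receptor, was higher by 0.81 ± 0.28 and Pik3r3, a regulatory subunit of PI3 kinase, lower by -0.57 ± 0.22 (SE; limma adjusted p = 0.319 and 0.345), or 0.48 and -0.33 without Flattop-negative replicate 1. Gsk3a and Bad, kinase and cell death protein that AKT inhibits, were higher without overlap by 0.81 ± 0.37 and 0.35 ± 0.19 (adjusted p = 0.402 and 0.461), Gsk3a by 0.30 without Flattop-negative replicate 1 and Bad by 0.07 after quantile normalization. Inpp5d, a lipid phosphatase of blood cells, was lower but under the floor on all arrays.

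Of 10 ligands and binding proteins, 3 to 5 lay above the floor on any array. At the unadjusted threshold 0 were higher and 2 lower (Igf1 and Igfbp4), against 8.48% and 5.37% of all genes. Ins2 had 12.95, 12.64 and 13.08 in Flattop-positive pools, against 12.37 and 13.04 in Flattop-negative pools, with overlap, and Igf2 had a difference of 0.17 ± 0.22 log2 units (SE; limma adjusted p = 0.721). Igf1 and Igfbp3 lay under the floor on all 5 arrays. Igfbp4, which binds IGFs and limits their action, had 4.27, 4.02 and 4.33 in Flattop-positive pools, all under the floor, against 5.47 and 5.25 in Flattop-negative pools, both above it. The difference of -1.15 ± 0.21 (SE; limma adjusted p = 0.199) is therefore of uncertain size.

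**Figure D5:**
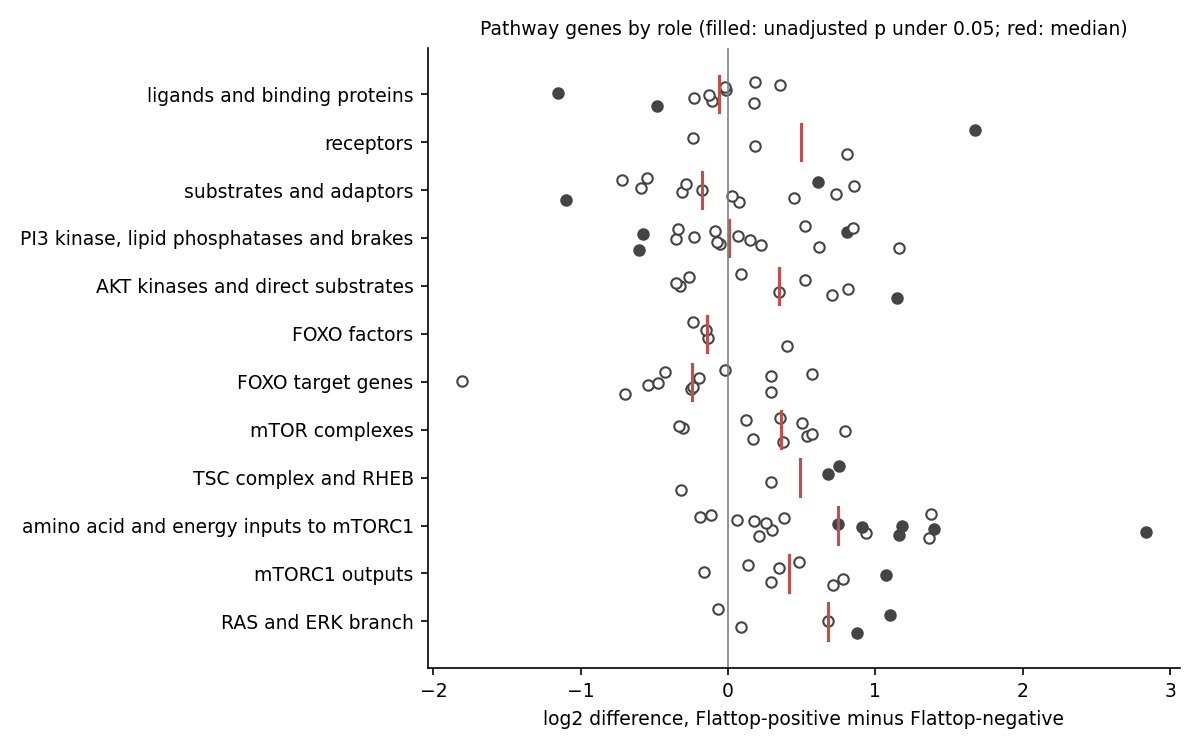
Log2 difference, Flattop-positive minus Flattop-negative, of the 112 measured pathway genes by role; filled points have an unadjusted p under 0.05 in limma and red bars are list medians. The 17 genes of amino acid and energy input to mTORC1 have a median of 0.75 and 6 filled points on the right, and the 12 FOXO targets a median of -0.24 and 0 filled points. Of all genes, 8.48% were higher and 5.37% lower at that p.

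Markers of other cells differed between the fractions and between single arrays. The 9 β-cell markers had a median difference of 1.21, with 7 higher without overlap, against 13.7% of all genes. By contrast 7 of 7 acinar, 10 of 10 stellate and 8 of 8 endothelial markers lay lower, as did 59.2% of all genes. On all arrays, 1 of the 7 acinar, 4 of the 10 stellate and 0 of the 8 endothelial markers were above the floor. On Flattop-negative replicate 2, 6 acinar, 7 stellate and 3 endothelial markers were above it, against 2 to 4, 4 to 6 and 0 to 1 elsewhere. Where a marker lay under the floor on some arrays, the size of its difference is uncertain. On Flattop-negative replicate 2 the macrophage gene Lyz2 was at 9.41, against at most 4.58 on the others, and 7 of 10 immune markers were above the floor there, against 4 to 6 elsewhere. Other macrophage genes were mixed. C1qb and C1qc were also highest on that array, at 5.16 and 5.49, against at most 4.42 and 4.93 elsewhere. Cd68 and Csf1r were highest there by less, at 6.59 and 5.73, against at most 6.37 and 5.50. C1qa was instead lower there, at 5.84, than on the Flattop-positive arrays, at 6.02 to 7.15. Adgre1 was under the floor on all arrays. The part of these cells in the 9 genes' differences was not tested.

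For the 3 genes that ranged most over the arrays, the closest profiles were sought among genes above the floor on every array, by the root mean square distance of centred log2 values over the 5 arrays. Akt1 was closest to Flcn, at 0.057 log2 units, then to Fbxl14 at 0.057 and Adgrg1 at 0.079. Igf1r lay nearest to Stat2 at 0.094, the gene model Gm6548 at 0.11 and Slc16a12 at 0.12. For Irs2 the nearest were the histone gene H2bu2 at 0.23, the chemokine Ccl5 at 0.24 and Vgf, a secreted neuroendocrine protein, at 0.27, each high on the arrays with high Xist. With 5 arrays and 10091 candidates, close profiles are a description of these pools.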

How the data were processed

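RNA of sorted islet cell pools was amplified with Ovation PicoSL WTA reagents and hybridised to 5 arrays, per the labels' protocols. Each probe set has a deposited log2 signal; the submitters' processing notes name Affymetrix Expression Console (1.3.0.187) and RMA as the authors' tools. RMA normalizes arrays to each other, yet normalizing the deposited values again moved the differences. The build behind the probe sets was not given in the sources used here; coordinates are those of RefSeq genes on GRCm38.p6. Of 35556 probe sets, 21789 carried 1 gene symbol and were used, and the probe set with the highest mean was kept, which gave 19938 genes.

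Fractions were compared in limma 3.58.1 (R 4.3.3), with group as the only term, two-sided, and Benjamini-Hochberg adjustment over all genes; the fit was tested on simulated data. With 3 and 2 arrays, the smallest p of an exact permutation test is 0.1. P-values set the difference between the fractions against the spread between these pools within a fraction. In limma the variance of each gene is drawn toward that of all genes, and the number of arrays limits the precision. The members and lists were chosen with earlier results of these data known. Named were the 9 genes, up to 3 non-overlapping genes per list by smallest p, and a set of further pathway genes; other names are marked. Alternatives tried were quantile, median and cyclic loess scaling, a block for replicate number, leaving out single arrays or dim genes, the mean of probe sets, a trended robust variance and array weights; a block for high Xist was added after seeing the data.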

Additional observations from a re-analysis of the deposited data

How the results depend on the processing

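None of the 9 genes passed the adjusted threshold under any of the 14 alternatives. Of 126 values of the 9 genes under them, 121 kept their direction. Those that turned were Insr without Flattop-negative replicate 1 (0.43; single arrays left out, -0.91 to 0.43) and with the mean of the probe sets (0.24), and Irs2 without Flattop-positive replicate 1 (0.03), without Flattop-negative replicate 2 (0.96; range -1.58 to 0.96) and with the block for high Xist (0.036). The count at an unadjusted p under 0.05 in limma was 2 as reported and 0 after quantile normalization and cyclic loess. It was 1 with trended robust variances, 3 with centred arrays and 0 to 4 with single Flattop-positive arrays left out. Of all genes, 13.8% had such a p as reported, and 8.86% and 8.18% after those scalings. The share was 14.7% with trended robust variances, 13.3% with centred arrays and 6.01% to 10.9% with single Flattop-positive arrays left out. Genes without overlap, 4 as reported, numbered 0 after quantile normalization and cyclic loess and 4 to 8 with single arrays left out. Of all genes, 34.7% were without overlap as reported, 39.2% to 69.6% with single arrays left out, and 25.8% and 25.5% after those scalings. Over those scalings the median of the 9 genes was 0.40 and 0.38, that of all genes -0.02 and -0.01. Pathway genes at the unadjusted threshold, 20 as reported, were 11 after quantile normalization, 12 after cyclic loess and 6 to 41 with single arrays left out. Of the other named genes, Igfbp3 turned after quantile normalization (0.15) and cyclic loess (0.14), Ins2 without Flattop-negative replicate 1 (-0.15; range -0.15 to 0.52) and after cyclic loess (-0.22), Igf2r without Flattop-negative replicate 1 (-0.32; range -0.32 to 0.69), after quantile normalization (-0.16) and after cyclic loess (-0.24), and Foxo3 without Flattop-positive replicate 2 (0.06), without Flattop-negative replicate 2 (0.70; range -0.98 to 0.70) and with the block for high Xist (0.068). With the replicate block, 5 of the 9 genes had an unadjusted p under 0.05 in limma, against 8.90% of all genes, and 0 passed. Same-numbered arrays deviated together from their group means at r = 0.18 for number 1 and -0.14 for number 2. The deviations of the 2 Flattop-negative arrays mirror each other, so these values cannot decide whether the numbers are pairs. The model with group as the only term did not take them as pairs. Where 1 Flattop-negative array is left out, the other is assumed to vary like the Flattop-positive arrays. Genes under the floor have differences of uncertain size. The causes of these changes were not tested.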
